A study of Mus musculus with 24 samples.

Results

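Kcnma1 encodes Slo1, the pore-forming alpha subunit of the BK channel, and 2 of the 35556 probe sets of the table carried its symbol, which makes it 1 of 19938 genes with a symbol of their own. Kcnma1 was chosen by its log2 difference between leukaemias and B220+ cells, so its levels there are given as a description with no test. BK channels let potassium out of the cell when the membrane is depolarised and calcium in the cytosol is raised, which repolarises the membrane. They are best known from neurons and smooth muscle, where beta and gamma subunits tune how readily the pore opens. In blood cells, potassium efflux through calcium-activated channels supports calcium entry, a part played in lymphocytes by Kcnn4 among others.

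RNA from 24 mouse bone marrow samples was measured with 1 Affymetrix gene array each, and all values below are log2 intensities. In the first set, 7 Sca1-BCR/ABLp190+Pax5+/- leukaemias and 2 Sca1-BCR/ABLp190 leukaemias, taken as tumour-bearing bone marrow, stood against B220+ bone marrow cells of 5 wild-type mice. In the second set, preleukaemic proB and preB cells of 3 Sca1-BCR/ABLp190+Pax5+/- mice and 3 Sca1-BCR/ABLp190 mice stood against proB and preB cells of wild-type mice, of which the labels give 4 and the design text 3. BCR/ABLp190 is the fusion kinase of acute lymphoblastic leukaemia, here driven by the promoter of the stem cell gene Sca1, and Pax5 is the transcription factor that commits cells to the B lineage. The groups are called Pax5+/- leukaemias, BCR/ABLp190 leukaemias, B220+ cells, Pax5+/- precursors, BCR/ABLp190 precursors and wild-type precursors. The wild-type mice carry neither the transgene nor the Pax5 deletion by their labels, no ages are given, and the mice were housed conventionally. No sort is named for the leukaemic marrow, and since these are bulk samples, fewer cells of a type and less RNA per cell cannot be told apart.

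The 2 probe sets named Kcnma1 did not behave alike. Probe set 10582545 was high in every leukaemia, between 11.52 and 13.78, and low in B220+ cells, while probe set 10418053 was low and nearly level on all 24 arrays. The annotation of 10418053 lists 20 accessions, 17 of them RefSeq transcripts, and RefSeq (GRCm38.p6) assigns all 17 to Kcnma1. That of 10582545 lists 4 GenBank accessions and 0 RefSeq transcripts. The probe set that lists the gene's annotated transcripts thus showed no rise of this size, so each probe set is named by its number from here on. No probe sequences were used here, so which RNA the probes of 10582545 match was not tested.

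Probe set 10582545 had a lowest value of 12.94, a median of 13.62 and a highest value of 13.78 in the 7 Pax5+/- leukaemias. It had 11.52 and 13.50 in the BCR/ABLp190 leukaemias. In the 5 samples of B220+ cells it had 6.79, 6.64, 6.09, 6.47 and 6.44. All 9 leukaemias lay above all 5 samples of B220+ cells, and the lowest leukaemia was a BCR/ABLp190 one. The mean was 13.53 ± 0.29 in Pax5+/- leukaemias (SD, n = 7) and 12.51 ± 1.40 in BCR/ABLp190 leukaemias (SD, n = 2), against 6.49 ± 0.26 in B220+ cells (SD, n = 5). The difference from B220+ cells was 7.05 ± 0.27 for Pax5+/- leukaemias and 6.02 ± 0.39 for BCR/ABLp190 leukaemias (SE), and both differences share the same B220+ arrays. Of all genes, 12.9% were called higher and 18.9% lower in Pax5+/- leukaemias than in B220+ cells, and 9.48% higher and 11.9% lower in BCR/ABLp190 leukaemias, by limma at an adjusted p under 0.05. Nothing is read from those shares about a gene that was picked for this contrast. The Pax5+/- leukaemias lay 1.02 ± 0.38 above the BCR/ABLp190 leukaemias, with overlapping values, and the difference was 0.030 without BCR/ABLp190 leukaemia 1 and 2.01 without BCR/ABLp190 leukaemia 2.

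Probe set 10418053 had a lowest value of 5.28, a median of 5.43 and a highest value of 5.71 in the Pax5+/- leukaemias. It had 5.45 and 5.39 in the BCR/ABLp190 leukaemias, and 5.45, 5.38, 5.39, 5.38 and 5.40 in B220+ cells. The groups overlapped and every value lay under the median of its array. Its difference from B220+ cells was 0.063 in Pax5+/- leukaemias (95% interval -0.078 to 0.204) and 0.020 in BCR/ABLp190 leukaemias (95% interval -0.182 to 0.222). The difference between Pax5+/- leukaemias and BCR/ABLp190 leukaemias was 0.043 (95% interval -0.151 to 0.236). Over all 24 arrays this probe set spanned 0.425, against 7.81 for probe set 10582545. The plot of values by array shows the contrast.

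**Figure D1:**
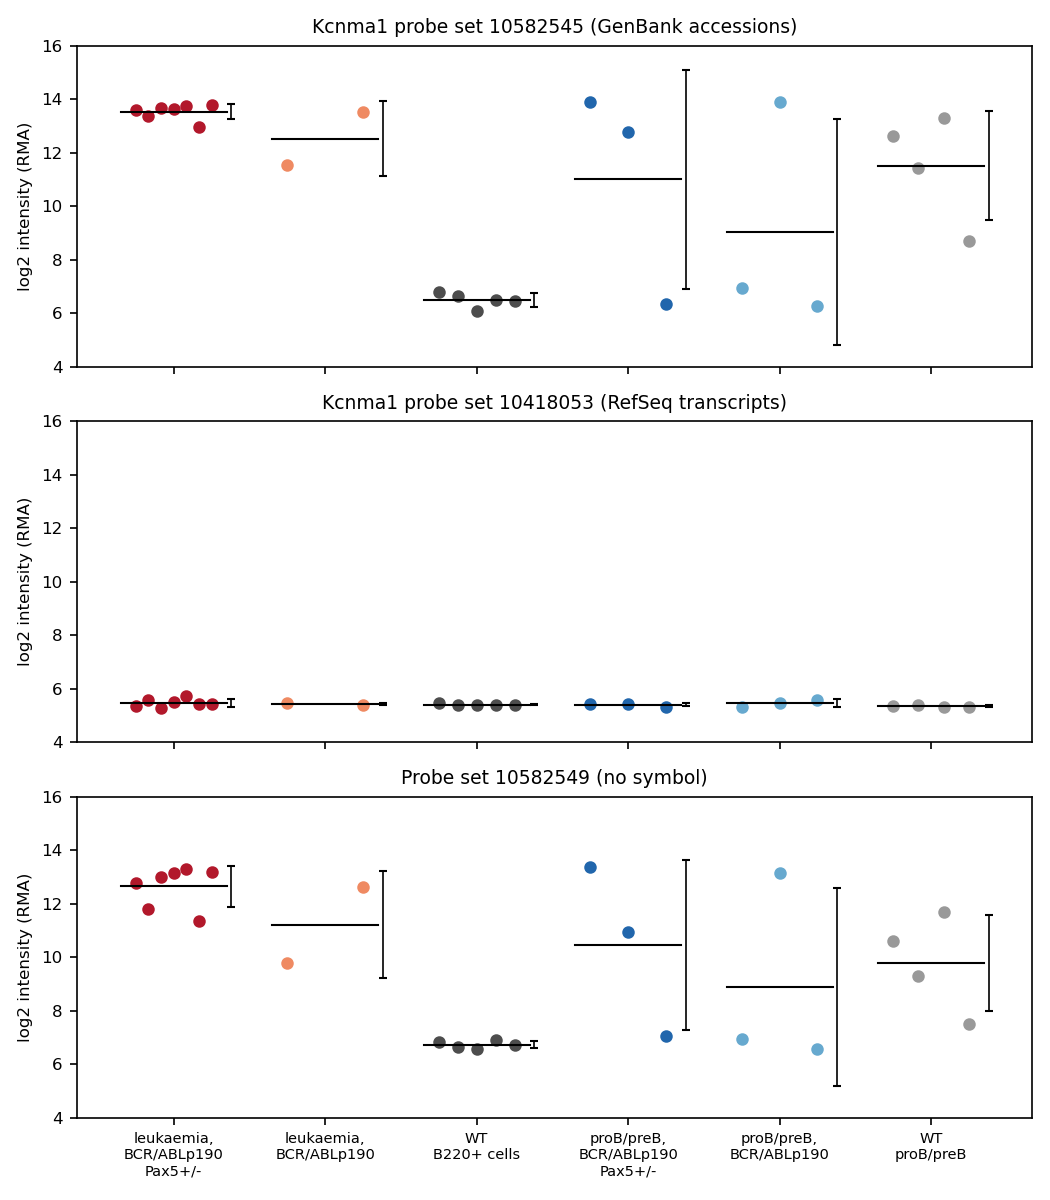
Log2 intensity of the 2 Kcnma1 probe sets and of the next-numbered probe set on each of the 24 arrays, by group; points are arrays, horizontal lines group means and the bars beside them SD. Probe set 10582545 lies between 11.52 and 13.78 in the leukaemias and between 6.09 and 6.79 in B220+ cells but spreads over the whole range in the precursors, while probe set 10418053 stays between 5.28 and 5.71 throughout.

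The gene was chosen by leukaemia and B220+ arrays, but probe set 10582545 stands for it by its mean over all 24 arrays, precursors included. Among the precursors, probe set 10582545 split within groups. It had 13.89, 12.77 and 6.32 in Pax5+/- precursors and 6.92, 13.88 and 6.26 in BCR/ABLp190 precursors, against 12.62, 11.43, 13.29 and 8.68 in wild-type precursors. Of the 10 precursor samples, 5 reached or passed the lowest leukaemia: 2 of 3 Pax5+/- precursors, 1 of 3 BCR/ABLp190 precursors and 2 of 4 wild-type precursors. The highest value of all 24 arrays belonged to a Pax5+/- precursor, and wild-type precursor 3 was above the leukaemia with 12.94. High values thus occurred in mice with no transgene and no Pax5 deletion.

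The precursor means were 10.997 ± 4.08 for Pax5+/- precursors (SD, n = 3) and 9.02 ± 4.22 for BCR/ABLp190 precursors (SD, n = 3), against 11.51 ± 2.03 for wild-type precursors (SD, n = 4). None of the 3 comparisons passed the test. Pax5+/- precursors differed from wild-type precursors by -0.51 ± 2.22 (SE, limma, adjusted p = 0.904). Leaving out 1 array moved that difference between -1.96 and 1.83, and it turned positive without Pax5+/- precursor 3 (1.83) or without wild-type precursor 3 (0.087). BCR/ABLp190 precursors differed from wild-type precursors by -2.48 ± 2.22 (SE, limma, adjusted p = 0.404), with a range of -4.91 to -1.10 when 1 array was left out. Pax5+/- precursors lay 1.98 ± 2.37 above BCR/ABLp190 precursors (SE, limma, adjusted p = 0.721), with a range of 0.527 to 4.40. The 95% intervals ran from -5.47 to 4.46, from -7.45 to 2.48 and from -3.33 to 7.28, so that differences of several log2 units would go undetected.

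The precursor SD of probe set 10582545 was the largest of all 19938 genes in Pax5+/- precursors and in BCR/ABLp190 precursors, and ranked 4 in wild-type precursors, where the median SD over all genes was 0.0845. In Pax5+/- leukaemias its SD of 0.294 was nearer the median of 0.169, and 26.6% of genes had a larger one. In BCR/ABLp190 leukaemias the SD was 1.40, with 2.72% of genes larger, and in B220+ cells 0.263, with 6.53% larger. By sex the precursor groups were unevenly made up. Xist, the RNA of the inactive X chromosome, was at 6.40 and 5.79 in the high Pax5+/- precursors and 12.68 in the low one. It lay between 6.24 and 6.49 in the 3 BCR/ABLp190 precursors, of which 1 was high, and between 12.49 and 12.70 in the 4 wild-type precursors. High arrays for 10582545 thus occurred at low and at high Xist. In Pax5+/- precursors, the only precursor group with both, the high arrays and the low one also differed in sex, and the part of sex there was not tested. Genotype and sex cannot be told apart between BCR/ABLp190 and wild-type precursors, for any gene named below. In the leukaemia set Xist was 12.25 to 12.48 in B220+ cells, 5.87 to 13.01 in Pax5+/- leukaemias, and 5.84 and 12.95 in BCR/ABLp190 leukaemias. The part of sex was not tested there either.

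Probe set 10418053 had 5.42, 5.43 and 5.33 in Pax5+/- precursors and 5.32, 5.47 and 5.59 in BCR/ABLp190 precursors, against 5.33, 5.39, 5.33 and 5.31 in wild-type precursors. It showed no split of the size seen with probe set 10582545. In Pax5+/- precursors it was also higher on the arrays high for 10582545, but its range there was 0.10, against 7.57. In BCR/ABLp190 precursors its highest value, 5.59, was on an array low for 10582545. Pax5+/- precursors differed from wild-type precursors by 0.050 ± 0.068 (SE, limma, adjusted p = 0.674) and BCR/ABLp190 precursors by 0.122 ± 0.068 (SE, limma, adjusted p = 0.189). The second of these passed without BCR/ABLp190 precursor 1 (0.192, limma, adjusted p = 0.0475). Pax5+/- precursors differed from BCR/ABLp190 precursors by -0.072 ± 0.072 (SE, limma, adjusted p = 0.663).

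In the order of group means, probe set 10582545 ran from Pax5+/- leukaemias through BCR/ABLp190 leukaemias, wild-type precursors, Pax5+/- precursors and BCR/ABLp190 precursors to B220+ cells. Each group overlapped the next in that order. The group means of probe set 10418053 lay between 5.34 in wild-type precursors and 5.46 in Pax5+/- leukaemias, and all neighbours in its order overlapped as well. The change with Pax5 copy in leukaemia minus that in precursors was -0.95 ± 2.35 for probe set 10582545 (SE, limma on all 24 arrays, adjusted p = 0.896) and 0.11 ± 0.12 for probe set 10418053 (adjusted p = 0.710).

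The gap between the 2 probe sets was unusual in size for this table. Over 999 genes with more than 1 probe set, the gap between the highest and the lowest difference of Pax5+/- leukaemias from B220+ cells had a median of 0.117, and 43 genes had a gap over 1. Kcnma1 had the largest gap, 6.98, and the next was 3.75 for Dab2, an endocytic adaptor. The gap rests on the contrast the gene was chosen for and is given as a description. Among 173 genes where some probe sets list RefSeq accessions and others do not, 22 (12.7%) had a gap over 1, against 19 (2.39%) of 795 genes whose probe sets all list them. Of all probe sets with 1 symbol, 780 (3.58%) list no RefSeq accession.

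**Figure D2:**
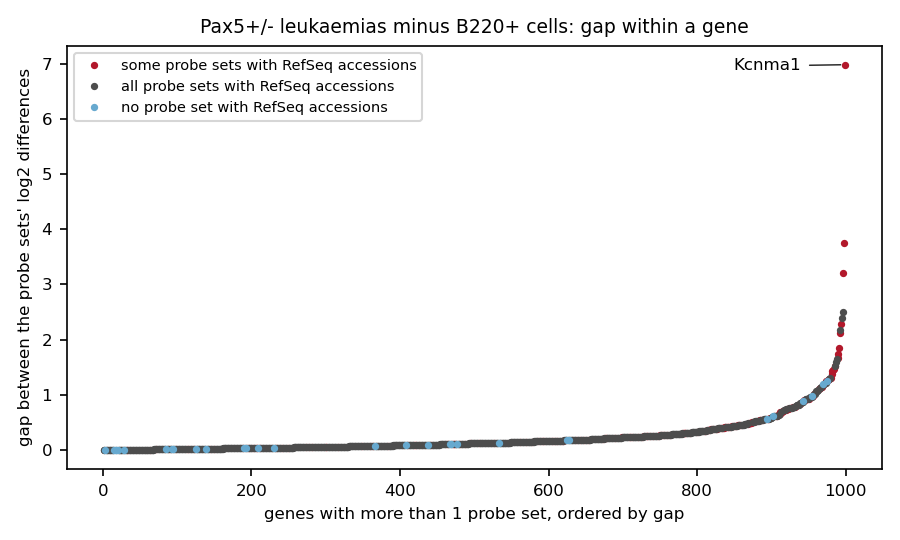
Gap between the probe sets of a gene in the log2 difference of Pax5+/- leukaemias minus B220+ cells, for 999 genes with more than 1 probe set in order of the gap; colours mark whether some, all or none of the gene's probe sets list RefSeq accessions. Kcnma1 stands at 6.98, above the next gene at 3.75 and the median of 0.117.

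Probe set numbers on this array follow the chromosome for most genes: of 21694 consecutive pairs of probe sets with 1 symbol, 20465 (94.3%) named genes on the same chromosome. The 20 nearest numbered genes of probe set 10418053 were all on chromosome 14, where Kcnma1 lies, with Dlg5, its neighbour there, next above. The 20 nearest numbered genes of probe set 10582545 were all on chromosome 8, with Fanca directly below and Dbndd1 above. Numbers alone do not show which RNA a probe set detects, which was not tested, and no gene is named from them.

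The next number in the table, probe set 10582549, has no symbol, and it was looked at after the values of 10582545 were seen. Of all other rows it had the profile nearest to that of 10582545, with a root mean square difference of 0.844 after each row's mean was subtracted. It had a lowest value of 11.35, a median of 13.01 and a highest value of 13.28 in Pax5+/- leukaemias, and 9.79 and 12.63 in BCR/ABLp190 leukaemias, against 6.57 to 6.90 in B220+ cells. It had 13.36, 10.95 and 7.04 in Pax5+/- precursors and 6.93, 13.16 and 6.55 in BCR/ABLp190 precursors, against 10.61, 9.28, 11.67 and 7.51 in wild-type precursors. The arrays that were high for 10582545 were thus high for this row too, and 5 of 15 arrays without leukaemia reached its lowest leukaemia.

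The named genes most like probe set 10582545 followed it far less closely. By the same measure the nearest 8 were Adgrg3, an adhesion receptor, Flt3, the receptor kinase of early progenitors, Tmem176b, Fads2, a fatty acid desaturase, Emp1, Il18r1, a subunit of the interleukin 18 receptor, Tmem176a and Atp8b4. Their root mean square differences over the 24 arrays ran from 2.23 to 2.37, where a row with no variation would stand at 3.21. Adgrg3 had means of 11.10 in Pax5+/- leukaemias and 11.04 in BCR/ABLp190 leukaemias, against 7.41 in B220+ cells. Flt3 had means of 11.13 and 8.91 in the same leukaemia groups, against 7.34 in B220+ cells, and its lowest leukaemia at 6.05 lay below the lowest B220+ sample at 6.74. The lowest leukaemia lay above the highest B220+ sample in the other 7. In the precursors Adgrg3 had 7.38 to 9.45 in the 10 precursor samples, and 0 of them reached its lowest leukaemia at 9.76. The same count was 0 for Tmem176b, Fads2, Emp1, Tmem176a and Atp8b4, 1 for Il18r1, and 10 for Flt3. Ranked by correlation, 2 of the 8 stayed among the nearest 8. For probe set 10418053 the nearest genes, from Cts6 to Ermn, lay at 0.078 to 0.083, where no variation would give 0.096.

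The genes next to Kcnma1 on chromosome 14 showed no rise of the size seen with probe set 10582545. Lrmda, the nearest on one side, averaged 6.88 ± 0.32 in Pax5+/- leukaemias (SD, n = 7) and 8.29 ± 0.83 in BCR/ABLp190 leukaemias (SD, n = 2), against 6.09 ± 0.14 in B220+ cells (SD, n = 5). It was higher by 0.79 in Pax5+/- leukaemias (limma, adjusted p = 0.00839) and by 2.20 in BCR/ABLp190 leukaemias (limma, adjusted p = 0.000198). Zmiz1, a transcriptional coregulator, was higher by 0.64 in Pax5+/- leukaemias than in B220+ cells (limma, adjusted p = 0.0284). Comtd1, Zfp503, Dlg5, a scaffold protein, and Polr3a, a subunit of RNA polymerase III, did not pass there, with differences of -0.19 to 0.53. Fanca and Dbndd1, the numbered neighbours of 10582545, differed from B220+ cells by 0.22 and -0.074 in Pax5+/- leukaemias and did not pass (limma, adjusted p = 0.112 and 0.307). In BCR/ABLp190 leukaemias Fanca, a DNA repair gene, was higher by 0.58 (limma, adjusted p = 0.0121).

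The 9 leukaemias differed from B220+ cells in the marker levels of several cell types. Of all genes, 12.9% were called higher and 18.9% lower in Pax5+/- leukaemias, and 9.48% and 11.9% in BCR/ABLp190 leukaemias. Of 11 measured B lineage markers, 9 fell in Pax5+/- leukaemias and 10 in BCR/ABLp190 leukaemias relative to B220+ cells, and their mean level was 8.77 to 10.75 in Pax5+/- leukaemias and 7.87 to 8.97 in BCR/ABLp190 leukaemias, against 11.76 to 12.01 in B220+ cells. Of 11 macrophage markers, 11 rose in Pax5+/- leukaemias and 7 in BCR/ABLp190 leukaemias, and their mean level was 7.56 to 10.24 in Pax5+/- leukaemias and 7.78 to 9.58 in BCR/ABLp190 leukaemias, against 6.18 to 6.40 in B220+ cells. In Pax5+/- leukaemias 6 of 6 megakaryocyte, 8 of 11 stroma, 7 of 8 endothelium and 0 of 12 neutrophil markers rose, and 1 endothelium marker fell. In BCR/ABLp190 leukaemias 3, 8, 7 and 8 of the same lists rose and 0 fell. In the precursors the B lineage mean stayed between 11.78 and 11.999 and the macrophage mean between 6.18 and 6.44. The B lineage mean was 11.87 and 11.78 on the high Pax5+/- arrays and 11.999 on the low one, and 11.84 on the high BCR/ABLp190 array and 11.88 and 11.94 on the low ones. Markers of 3 other cell types were higher on the high arrays of both transgenic groups. These 3 were picked from all marker lists by that order, once the high arrays were known, and no test was made. No other list was higher on the high arrays of both groups. The plasma cell mean was 8.15 and 8.27 on the high Pax5+/- arrays and 8.72 on the low one. In BCR/ABLp190 precursors it was 8.36 on the high array and 8.37 and 8.32 on the low ones. Of the 3 picked, T cell markers had the smallest gaps. The NK cell mean was 6.96 and 7.40 on the high Pax5+/- arrays and 6.67 on the low one, and 7.16 on the high BCR/ABLp190 array and 6.35 and 6.19 on the low ones. The dendritic cell mean was 7.92 and 8.13 on the high Pax5+/- arrays and 6.92 on the low one, and 7.97 on the high BCR/ABLp190 array and 7.61 and 7.11 on the low ones. The T cell mean was 6.77 and 6.61 on the high Pax5+/- arrays and 6.56 on the low one, and 6.77 on the high BCR/ABLp190 array and 6.74 and 6.62 on the low ones. In wild-type precursors the array lowest for 10582545 had an NK cell mean of 7.80, against 8.02 to 8.52 on the other 3, and a dendritic cell mean of 8.44 within their range of 8.40 to 8.56. Of 10 smooth muscle markers, cells known for BK channels, 4 rose and 2 fell in Pax5+/- leukaemias, with a mean level of 6.71 to 7.25 there and 6.33 to 6.40 in B220+ cells. Of 7 neural markers, 0 rose and 1 fell in Pax5+/- leukaemias (limma; 0 higher and 2 lower at an unadjusted p under 0.05), and their mean was 6.05 to 6.28 in Pax5+/- leukaemias, against 6.14 to 6.30 in B220+ cells. The part of these cells in the values of 10582545 was not tested.

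Within the 7 Pax5+/- leukaemias, probe set 10582545 was lower where granulocyte markers were higher, which is given as a description with no test because the gene was chosen from these arrays. Its correlation with the mean of 12 neutrophil markers was r = -0.891 and rho = -0.964, and r was -0.857 without the 2 arrays farthest from the median of the markers. With the mean of 6 erythroid markers it was r = -0.888 and rho = -0.893, and r was -0.624 without the 2 farthest arrays. With Pax5 it was r = -0.059 and rho = 0.071, and r was 0.501 without the 2 farthest arrays. These are 3 of 9 relations computed, the others being with B lineage, macrophage, megakaryocyte, stroma, endothelium and smooth muscle markers, whose r lay between -0.653 and 0.111. Without the 2 farthest arrays r was -0.943 with B lineage and 0.856 with macrophage markers, and between -0.539 and -0.098 with the rest of these. Leaving out 2 of 7 arrays thus moved several of the relations widely. Over all 9 leukaemias the neutrophil relation was r = -0.758 and rho = -0.933, and the erythroid one r = -0.893 and rho = -0.817, with r at -0.611 for erythroid markers without the 2 farthest arrays. The lowest leukaemia, BCR/ABLp190 leukaemia 1, had the highest level of both marker lists among the 9, at 12.28 and 12.08.

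**Figure D3:**
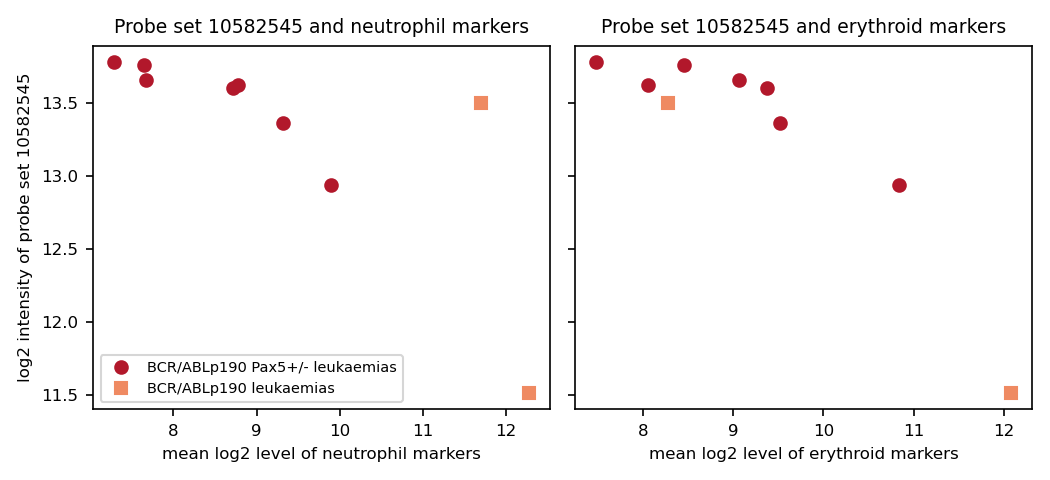
Log2 intensity of probe set 10582545 against the mean log2 level of neutrophil markers (left) and erythroid markers (right) in 7 Pax5+/- leukaemias (circles) and 2 BCR/ABLp190 leukaemias (squares), 1 point per array. The array with 11.52 lies at the highest level of both marker lists, and the 7 Pax5+/- leukaemias run from 13.78 down to 12.94 over neutrophil means of 7.28 to 9.90.

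The subunits that join Slo1 in the BK channel showed no rise that passed the test in either leukaemia group. All 8 listed were measured, the beta subunits Kcnmb1 to Kcnmb4 and the gamma subunits Lrrc26, Lrrc38, Lrrc52 and Lrrc55. In Pax5+/- leukaemias against B220+ cells 0 rose and 1 fell, and the median difference was -0.13 (0 higher and 3 lower at an unadjusted p under 0.05, limma). Of all genes, 12.9% were called higher and 18.9% lower there, and 9.48% and 11.9% in BCR/ABLp190 leukaemias. The 1 that fell was Kcnmb3, with a lowest value of 6.84, a median of 6.98 and a highest value of 7.23 in Pax5+/- leukaemias, against 7.43, 7.34, 7.21, 7.13 and 7.25 in B220+ cells. These values overlap, and the difference was -0.28 ± 0.07 (SE, limma, adjusted p = 0.00881). In BCR/ABLp190 leukaemias 0 of 8 passed either way (0 higher and 1 lower at an unadjusted p under 0.05, limma). In BCR/ABLp190 precursors against wild-type precursors 2 of 8 rose, where 11.6% of all genes were called higher and 15.5% lower. They were Lrrc55, by 0.42 (limma, adjusted p = 0.00594), and Lrrc52, by 0.21 (limma, adjusted p = 0.0335). Lrrc55 had 5.83, 6.12 and 6.02 in BCR/ABLp190 precursors, against 5.54, 5.49, 5.61 and 5.62 in wild-type precursors, with no overlap.

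The other Slo channels, the sodium-activated Kcnt1 and Kcnt2 and the sperm channel Kcnu1, did not pass in either leukaemia group (0 of 3 by limma, and 0 at an unadjusted p under 0.05). Kcnt1 rose by 0.24 in BCR/ABLp190 precursors over wild-type precursors (limma, adjusted p = 0.0222). Of the small and intermediate conductance channels, Kcnn4 rose in both leukaemia groups and Kcnn1 to Kcnn3 did not pass. Kcnn4, the intermediate conductance channel of blood cells, had a lowest value of 9.52, a median of 10.04 and a highest value of 10.26 in Pax5+/- leukaemias and 11.08 and 10.43 in BCR/ABLp190 leukaemias, against 7.95, 8.02, 7.97, 8.52 and 8.23 in B220+ cells. The 9 leukaemias did not overlap with B220+ cells. Kcnn4 was higher by 1.84 ± 0.16 in Pax5+/- leukaemias (SE, limma, adjusted p = 5.03e-06) and by 2.62 ± 0.23 in BCR/ABLp190 leukaemias (SE, limma, adjusted p = 1.43e-05). In the precursors it had 8.88, 8.42 and 7.53 in Pax5+/- and 8.35, 8.41 and 7.98 in BCR/ABLp190 samples, against 8.99, 8.77, 8.997 and 8.74 in wild-type samples, and neither difference from wild type passed. Kcnn1 and Kcnn3 rose by 0.31 and 0.29 in BCR/ABLp190 precursors over wild-type precursors (limma, adjusted p = 0.0157 and 0.0302). Their BCR/ABLp190 precursor means of 6.62 and 5.99 also lay below the lowest array median.

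**Figure D4:**
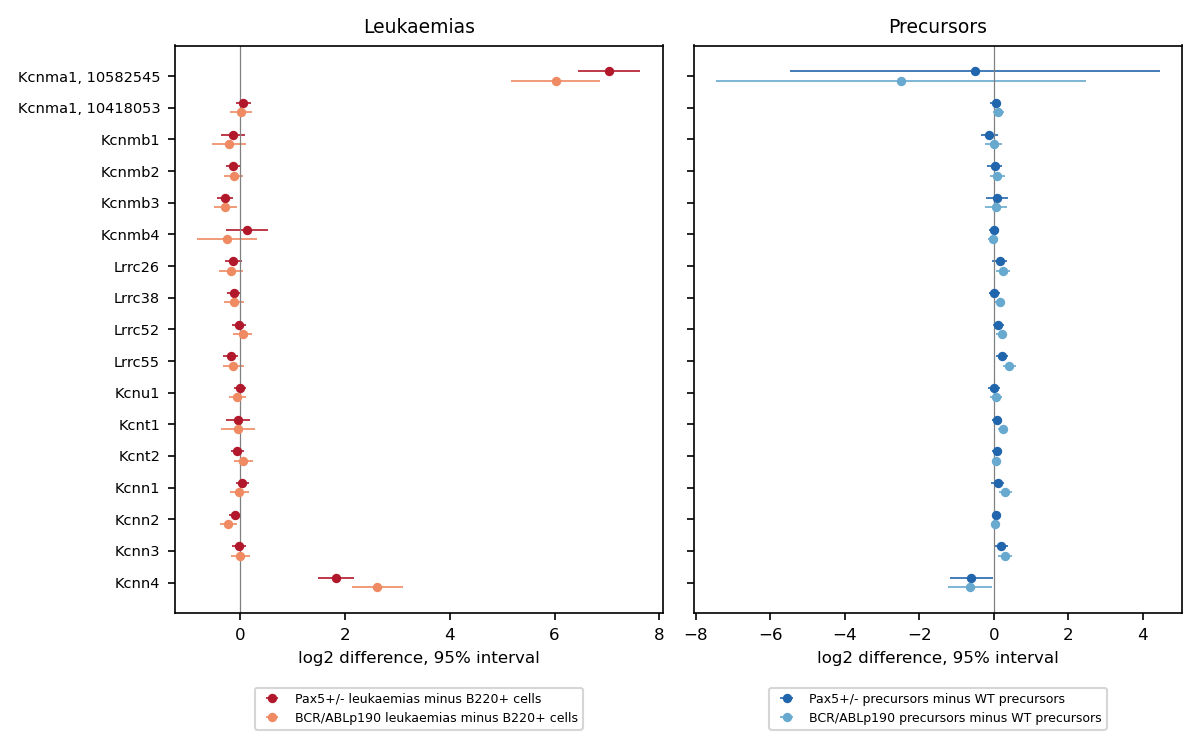
Log2 difference with its 95% interval for the 2 Kcnma1 probe sets, the 8 BK subunits, the 3 other Slo channels and the 4 small and intermediate conductance channels, in leukaemias minus B220+ cells (left) and in transgenic precursors minus wild-type precursors (right). In leukaemias 10582545 lies at 7.05 and 6.02 and Kcnn4 at 1.84 and 2.62, with 10418053 at 0.063 and 0.020, and in precursors the intervals of 10582545 span 0. Kcnma1 was chosen by the leukaemia difference, so its values and intervals on the left are a description and no test.

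Among the 14 leak potassium channels, 1 rose and 2 fell in Pax5+/- leukaemias against B220+ cells. The shares of all genes called there were 12.9% higher and 18.9% lower, for this list and the other lists of this paragraph. Kcnk6 (TWIK2) had a lowest value of 9.67, a median of 9.91 and a highest value of 10.56 in Pax5+/- leukaemias and 9.48 and 8.67 in BCR/ABLp190 leukaemias, against 7.53, 7.86, 7.91, 7.93 and 8.02 in B220+ cells. Its values did not overlap with those of B220+ cells in either group, and it rose by 2.19 ± 0.19 in Pax5+/- leukaemias (SE, limma, adjusted p = 5.57e-06) and 1.22 ± 0.27 in BCR/ABLp190 leukaemias (SE, limma, adjusted p = 0.00733). Kcnk13 and Kcnk10 fell in Pax5+/- leukaemias, with differences of -0.43 and -0.41. Of 15 inward rectifiers 2 rose and 4 fell there, among them Kcnj8, a pore subunit of ATP-sensitive channels, with a difference of 1.13, and Kcnj2, Kcnj1 and Kcnj4 with differences of -0.51, -0.41 and -0.26. Kcnj2 went the other way in BCR/ABLp190 leukaemias, higher by 0.77 than in B220+ cells (limma, adjusted p = 0.00128), and Pax5+/- leukaemias differed from BCR/ABLp190 leukaemias by -1.28 ± 0.13 (SE, limma, adjusted p = 0.000166). Of 46 measured voltage-gated channel genes 1 rose and 7 fell in Pax5+/- leukaemias, among them Kcns1, Kcna5, Kcnd3 and Kcng4 with differences of -0.33, -0.23, -0.23 and -0.23.

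Of 27 measured genes of calcium entry, store release and pumping, 3 rose and 6 fell in Pax5+/- leukaemias against B220+ cells. Of all genes, 12.9% were called higher and 18.9% lower in that comparison, which also applies to the partners of BK channels below. Atp2a2, a calcium pump of the endoplasmic reticulum, rose by 0.66 (limma, adjusted p = 5.42e-06) and Saraf, a brake on store-operated entry, by 1.42 (limma, adjusted p = 0.000389). Itpr2, a calcium release channel, fell by 1.20 (limma, adjusted p = 1.03e-05) and the pump Atp2a3 fell by 0.95 (limma, adjusted p = 0.000364). Of 9 measured partners and regulators of BK channels, 3 rose and 2 fell. Cav1, the coat protein of caveolae, rose by 0.79 (limma, adjusted p = 0.0064) and the kinases Src and Prkca by 0.68 and 0.73 (limma, adjusted p = 0.00877 and 0.0361). Prkca missed the threshold when any of 9 of the 12 arrays was left out (limma, adjusted p up to 0.0784). Crbn, a ubiquitin ligase receptor, fell by 0.54 (limma, adjusted p = 0.00199).

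Taken over all 126 measured genes of these lists, 11 (8.73%) rose and 22 (17.5%) fell in Pax5+/- leukaemias, and 6 (4.76%) rose and 12 (9.52%) fell in BCR/ABLp190 leukaemias, each relative to B220+ cells. None of these shares was above that of all genes given for the same comparison and direction. Between Pax5+/- and BCR/ABLp190 leukaemias 1 was higher and 1 lower, where 0.712% of all genes were called higher and 1.16% lower. The 18 calls of BCR/ABLp190 leukaemias against B220+ cells became 11 without BCR/ABLp190 leukaemia 1 and 28 without BCR/ABLp190 leukaemia 2, and the 2 calls between the leukaemia groups became 1 and 14. In Pax5+/- precursors against wild-type precursors 2 rose and 2 fell, where 1.23% and 2.94% of all genes did. Those 4 calls became 1 without Pax5+/- precursor 2 or wild-type precursor 1 and 0 without wild-type precursor 2 or 3. In BCR/ABLp190 precursors against wild-type precursors 27 (21.4%) rose and 9 (7.14%) fell, where 11.6% of all genes were called higher and 15.5% lower, and the median difference was 0.12, against 0.037 over all genes. That count of 36 calls became 17 after quantile normalization of the deposited values and 14 with cyclic loess. It was 12 without BCR/ABLp190 precursor 3, 20 without BCR/ABLp190 precursor 2, and 19, 20 and 17 without wild-type precursor 1, 2 or 3. Over all 7 left-out arrays it ran from 12 to 47. Genotype and sex cannot be told apart in this comparison, since Xist was low in all BCR/ABLp190 precursors and high in all wild-type precursors. Between Pax5+/- and BCR/ABLp190 precursors 0 were called (limma; 4 higher and 8 lower at an unadjusted p under 0.05), where 0.015% of all genes were called higher and 0.01% lower, 5 genes in all and 0 with replicate number as a block.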

How the data were processed

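The deposited values are log2 intensities per probe set, made by the authors with RMA in oligo, per the submitters' processing notes, with versions not given in the sources used here. That method subtracts background, gives the arrays a common distribution and joins the probes of a probe set. It returns a level for dim probe sets too, and the table has no detection calls. By the platform's annotation 21789 probe sets hold a single gene symbol, 1621 more than 1, and 12146 are unnamed. Of the named ones, 21698 matched the RefSeq gene table. The probe set with the highest mean stood for a gene. For Kcnma1 that was 10582545, and both are given.

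Groups were compared with limma 3.58.1 in R 4.3.3 (lmFit, eBayes, two-sided, Benjamini-Hochberg over 19938 genes, threshold 0.05), on the 14 arrays of the leukaemia set and the 10 of the precursor set, without a replicate block, and checked on simulated data. Replicates are called biological in the labels. Deviations of same-numbered arrays correlated at 0.208 to 0.250 for all 3 pairs of Pax5+/- and BCR/ABLp190 precursors. That passes the limit of 0.1 in every pair set here for a pairing, and no other comparison did. The labels name no pairing, the fits above have no block, and values with replicate number as a block are given below. Named genes are all BK subunits, other Slo and SK/IK channels, up to 4 called members of each other list with the smallest adjusted p, the 8 genes most like each probe set, and 3 neighbours on each side. Dab2 and the numbered neighbours were named after their values were seen. Kcnma1, the lists and the rules were chosen with earlier results of these data known. The number of arrays limits precision. Permutation p-values of correlations within leukaemias had been planned and are not given, since Kcnma1 was chosen from those arrays.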

Additional observations from a re-analysis of the deposited data

Results flagged for a closer look

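In groups of 4 to 10 arrays, 6 of 111 tested had 1 array far from the others, where chance gives about 1 in 20. Kcnmb1 reached 5.87 in B220+ sample 2 and Kcnt1 reached 6.12 in Pax5+/- leukaemia 4. Kcnt2 was lowest at 4.73 in Pax5+/- leukaemia 7. Kcna5 was lowest at 5.33 in B220+ sample 1 and at 5.44 in wild-type precursor 1. Kcnj8 reached 8.46 in Pax5+/- leukaemia 3, the other 6 lying between 6.49 and 7.30. Among the groups of that size, none of either Kcnma1 probe set stood out in this way. Pax5+/- precursors, BCR/ABLp190 precursors and BCR/ABLp190 leukaemias had fewer arrays and were not tested. The check thus says nothing on the split of probe set 10582545 within the transgenic precursor groups.

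The change of Kcnj2 with Pax5 copy differed between leukaemias and precursors by -0.96 ± 0.19 (SE, limma on all 24 arrays, adjusted p = 0.0168). It was -1.28 between the leukaemia groups and -0.33 between the precursor groups.

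The probe set with no symbol, 10582549, which no comparison uses, was 5.91 higher in Pax5+/- leukaemias than in B220+ cells. What it detects was not tested.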

How the results depend on the processing

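The choice of probe set decided the Kcnma1 values. With the mean of both probe sets the difference from B220+ cells was 3.55 in Pax5+/- leukaemias and 3.02 in BCR/ABLp190 leukaemias, since the mean takes in the level probe set. With probe set 10418053, chosen after seeing the data, it was 0.063 and 0.020, and the 3 precursor differences changed sign, to 0.050, 0.122 and -0.072. Left-out arrays moved the difference of Pax5+/- from wild-type precursors on 10582545 between -1.96 and 1.83. For 10418053, the difference of BCR/ABLp190 leukaemias from B220+ cells was 0.092 after repeated quantile normalization and 0.092 with cyclic loess, that of Pax5+/- from wild-type precursors was -0.0046 after repeated quantile normalization, and that of BCR/ABLp190 from wild-type precursors ran from 0.058 to 0.192 with 1 array left out.

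With replicate number as a block, the precursor differences of 10582545 were -1.45, -3.42 and 1.98 (limma, adjusted p = 0.687, 0.254 and 0.693), and no call of either Kcnma1 probe set changed. Kcnmb3, Src and Prkca lost their calls with it. The block gave 2726 genes and 10 listed genes called for BCR/ABLp190 leukaemias against B220+ cells, 106 and 1 between the leukaemia groups, 253 and 0 for Pax5+/- against wild-type precursors, and 0 genes between transgenic precursors. 1 fit of all 24 arrays called 35 listed genes for BCR/ABLp190 leukaemias, 1038 genes and 6 listed genes between leukaemia groups, 275 genes for Pax5+/- against wild-type precursors, 23 listed genes for BCR/ABLp190 against wild-type precursors and 2 genes between transgenic precursors. With only genes at or above the median level, which tests fewer genes, the counts were 17 listed genes for Pax5+/- leukaemias, 1 between leukaemia groups, 2 for Pax5+/- precursors, 3368 genes and 12 listed genes for BCR/ABLp190 precursors and 3 genes between transgenic precursors. For BCR/ABLp190 against wild-type precursors cyclic loess called 3406 genes and 14 listed genes, and repeated quantile normalization 17 listed genes, the cause of which was not tested. With 1 array left out, 2235 to 4755 genes and 11 to 28 listed genes were called for BCR/ABLp190 leukaemias, 279 to 2137 and 1 to 14 between leukaemia groups, 37 to 1063 and 0 to 5 for Pax5+/- precursors, 2331 to 6015 and 12 to 47 for BCR/ABLp190 precursors, and 1 to 138 and 0 to 1 between transgenic precursors. A group left with 1 array was taken to vary like the others.

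Over all 9 leukaemias in place of the 7 Pax5+/- leukaemias, the correlations of 10582545 with Pax5, B lineage and smooth muscle markers were 0.381, 0.403 and -0.116. Within the 7 Pax5+/- leukaemias without the 2 farthest arrays, those with Pax5, B lineage, macrophage and smooth muscle markers were 0.501, -0.943, 0.856 and -0.098.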
